A study of Mus musculus with 4 samples.

Results

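The pyruvate dehydrogenase complex and the enzymes that switch it on and off were followed after an siRNA against Timp1 in the mouse fibroblast line NIH3T3. The group holds 10 genes, Pdha1, Pdhb, Dlat, Pdhx, Dld, Pdk1, Pdk2, Pdk3, Pdk4 and Pdp1, of 37325 gene and transcript names on the array. Members were found as non-control probes whose gene name in the array files is one of these 10, which gave 21 of 56605 probes. The set was selected on measured values, namely the lower signal of Pdhb and its adjusted p in the comparison of siTIMP1 with siControl. All values from that comparison therefore describe these 4 arrays, no test is given for Pdhb, and nothing is read from counts that include it.

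The complex sits in the mitochondrial matrix and turns pyruvate, the end product of glycolysis, into acetyl-CoA for the citric acid cycle. E1, a tetramer of alpha (Pdha1) and beta (Pdhb) chains, decarboxylates pyruvate with thiamine diphosphate. E2 (Dlat) passes the acetyl group to coenzyme A on swinging lipoyl arms, and E3 (Dld) reoxidises those arms. The kinases Pdk1 to Pdk4 phosphorylate the alpha chain of E1 and switch the complex off, and the phosphatase Pdp1 reverses this.

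Both groups were NIH3T3 cells held at 2% fetal calf serum and transfected by means of sCA, which the series title names as apatite nanoparticles. The control group received siControl (n = 2 arrays) and the other group siTIMP1 (n = 2 arrays). The labels call the cells dermal fibroblasts, whereas NIH3T3 is a line made from mouse embryos. Total RNA was labelled with Cy3 and read on 1-colour Agilent arrays with probes of 60 bases, 1 array per sample. Whether the samples are separate cultures is not stated, and the p-values cover no more than the spread between arrays, which may be technical.

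The share of spots well above background was 45.9% to 52.1% per array, and no spot was saturated. The 4 arrays shared 1 slide and 1 scan, siControl holding positions 1 and 2 and siTIMP1 the positions 3 and 4, so that position and group cannot be told apart. Timp1, the target, kept 2.68% of its control signal (log2 fold change -5.22, SE 0.158, limma adjusted p = 0.0105). Without siTIMP1 replicate 1 or 2 its log2 fold change was -5.37 or -5.07. All 12 fibroblast markers examined were well above background on every array by at least 1 probe, among them Col1a1, Vim and Pdgfra. The brightest Pdgfra probe had a log2 fold change of -0.88, and those of the other fibroblast markers lay between -0.20 and 0.49. The defining epithelial genes Epcam and Cdh1 and the endothelial genes Cdh5 and Kdr were well above background on no array. Markers with a probe well above background on every array numbered 2 of 6 for epithelium (Krt8 and Krt14), 0 of 4 for endothelium, 0 of 4 for muscle and 2 of 4 for adipocytes (Fabp4 and Lep). All 4 leukocyte markers had a probe well above background on every array, with 1 of 7 probes for Ptprc, 2 of 3 for Cd68, 1 of 2 for Itgam and 1 of 2 for Cd3e. The brightest probes of these 4 genes had log2 fold changes of 0.01, 0.09, -0.32 and -0.54, and their part in the results was not tested. These are values of bulk RNA, in which fewer cells with a transcript and less of it per cell cannot be told apart.

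Levels are given as processed signals, the scanner's background-subtracted intensities, or as normalised log2 signals, which are log2 of that signal minus the 75th percentile of its array. Fold changes are siTIMP1 minus siControl on that log2 scale, and their standard errors (SE) come from a limma fit over all 26015 tested probes. Intervals are 95% intervals of that fit without adjustment, and p-values are adjusted by Benjamini-Hochberg over all tested probes. Tested probes had to stand well above background on each array of siControl, of siTIMP1 or of both. This held for 18 of the 21 member probes, and every member had at least 1.

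Among the 18 tested member probes, 1 was lower at an adjusted p under 0.05, the Pdhb probe that led to the choice of the group, beside 0.627% of all tested probes. That count changed with 1 array left out, as did the count over all tested probes. Such a fit leaves 1 array in a group, and nothing is read from its calls. No member probe was higher in limma, beside 0.0615% of all tested probes, and 2 were higher at an unadjusted p under 0.05, beside 10.6% of all tested probes. The adjusted p that selected the Pdhb probe was 0.0181, and the member values nearest outside the threshold were 0.152 for another Pdhb probe and 0.175 for Dld. For Pdhb these values only describe the selection and are no test. The groups did not overlap for 6 probes that were lower and 6 that were higher with siTIMP1, beside 23.2% and 29.8% of all tested probes. Of the 16 tested probes of the other members, 4 were lower and 6 were higher without overlap. Without Pdhb, the fold changes of the other 16 tested probes lay between -0.48 and 0.43 with a median of 0.09, beside a median of 0.02 over all tested probes.

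Pdhb, the beta chain of E1, was measured by 3 probes on the minus strand of chromosome 14 (mm9). The brightest, A_55_P1953972, lies at chr14:8998548-8998607 and is assigned to the mRNA NM_024221, where it starts at base 1382. A_66_P103403, at chr14:8997620-8997679, lies 928 bases further along the direction of transcription and is assigned to the cDNA clone AK011810. A_55_P1969775, at chr14:9003605-9003664, lies 5057 bases upstream of the brightest and is assigned to the cDNA clone AK084507. The array files give no exon or coding annotation for these positions. The middle 30 bases of each probe, 5′ to 3′ as the array files give it, are shown because the values of Pdhb rest on these separate stretches of transcript. All letters are in lower case because no motif was searched in them.
A_55_P1953972: aggtaacttatatgtctaagaagtatatta
A_66_P103403: ttctcttctgaaatacctagcaaagctaca
A_55_P1969775: gtaatatttatggagctaatccaaggaggt

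The brightest Pdhb probe had processed signals of 2247 and 2161 on the siControl arrays and of 775.1 and 713.5 on the siTIMP1 arrays. Both siTIMP1 arrays lay far below both siControl arrays, and the arrays of a group lay close together. On the normalised log2 scale siControl had a mean of 3.58 ± 0.02 (SD, n = 2). The siTIMP1 mean was 1.97 ± 0.08 (SD, n = 2). The log2 fold change was -1.61, so that siTIMP1 held 32.7% of the control signal. Among the 163 probes that were lower at the threshold, this fall ranked 27 by size, which only describes the selection.

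The clone probe A_66_P103403 was dimmer, with signals of 32.52 and 29.84 in siControl and of 16.64 and 9.915 in siTIMP1. It was lower on both siTIMP1 arrays too, but was well above background on only 3 of 4 arrays, the exception being siTIMP1 replicate 2. Its log2 fold change was -1.32, and with normexp background correction it was -0.35. The upstream probe A_55_P1969775 had signals of 8.928 and 24.77 in siControl and of 20.42 and 10.93 in siTIMP1, was well above background on 1 array of each group, and was not tested. Its groups overlapped entirely, so Pdhb could not be read with this upstream probe. A_66_P103403 was tested through siControl alone, the group where it is high, so its lower value is no independent support for the fall.

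**Figure D1:**
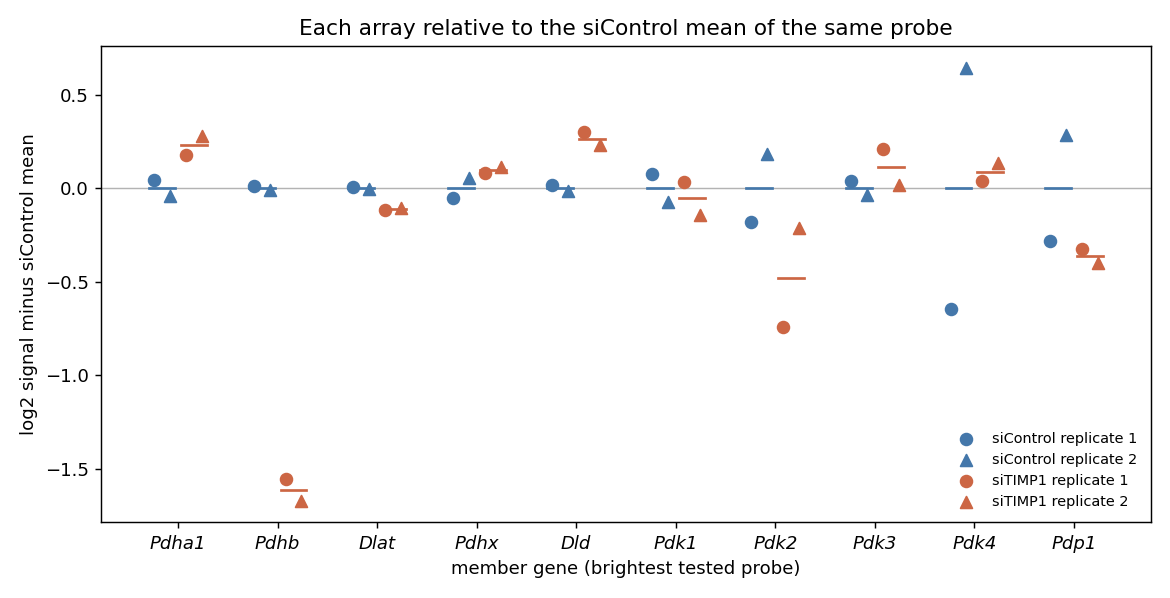
Normalised log2 signal of the brightest tested probe of each member on each of the 4 arrays, after subtraction of the siControl mean of that probe, with short bars for the group means. Pdhb has both siTIMP1 arrays more than 1.5 below its siControl mean, and Pdk4 has the widest gap between its siControl arrays.

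Pdha1, the alpha chain that the kinases phosphorylate, had no call. Its probe in the mRNA NM_008810, at chrX:156560573-156560632, had signals of 1529 and 1406 in siControl and of 1714 and 1833 in siTIMP1. Both siTIMP1 arrays were higher than both siControl arrays, with a log2 fold change of 0.23 (SE 0.0749, interval 0.04 to 0.42, limma adjusted p = 0.22). The brightest probes of the E1 chains had opposite signs, a contrast that rests on the Pdhb value that chose the group. A second Pdha1 probe, assigned to ENSMUST00000127535 and 14273 bases upstream, had signals between 9.984 and 14.85 and a log2 fold change of -0.05 (limma adjusted p = 0.94), whose groups overlapped. Its sign turned with normexp background correction (0.01) and with quantile normalization (0.002).

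Dlat, the acetyltransferase E2 that forms the core, had 2 probes in the mRNA NM_145614, at chr9:50442953-50443012 and chr9:50445621-50445680. The brighter had signals of 190.6 and 185.4 in siControl and of 178.8 and 180.2 in siTIMP1. Both siTIMP1 arrays were slightly below both siControl arrays, with a log2 fold change of -0.11 (interval -0.35 to 0.12, limma adjusted p = 0.539). The other had 154.4 and 165.5 in siControl and 199.8 and 178.1 in siTIMP1, with a log2 fold change of 0.19 (interval -0.10 to 0.49, limma adjusted p = 0.412). The Dlat probes therefore differed in sign, and both intervals include 0.

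Pdhx, the protein that anchors E3 to the core, had signals of 219.6 and 230.8 in siControl and of 245.3 and 250.8 in siTIMP1 with its probe at chr2:102861330-102861389. Its log2 fold change was 0.10 (interval -0.14 to 0.33, limma adjusted p = 0.606). A second Pdhx probe at chr2:102881192-102881251, assigned to ENSMUST00000111183, had signals of 37.47 and 43.31 in siControl and of 67.2 and 46.79 in siTIMP1. It gave 0.43 (interval -0.15 to 1.01, limma adjusted p = 0.368), and siTIMP1 replicate 1 stood above the other 3 arrays. Without that array the value was 0.17.

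Dld, the E3 flavoprotein that the complex shares with related 2-oxo acid dehydrogenases, was measured by 1 probe at chr12:32016889-32016948. Its signals were 1072 and 1022 in siControl and 1332 and 1264 in siTIMP1. The siTIMP1 arrays were both higher, with a log2 fold change of 0.26 (SE 0.0706, interval 0.08 to 0.45, limma adjusted p = 0.175). This was the smallest adjusted p of any member other than Pdhb. Across all 14 alternatives Dld lay between 0.22 and 0.30.

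**Figure D2:**
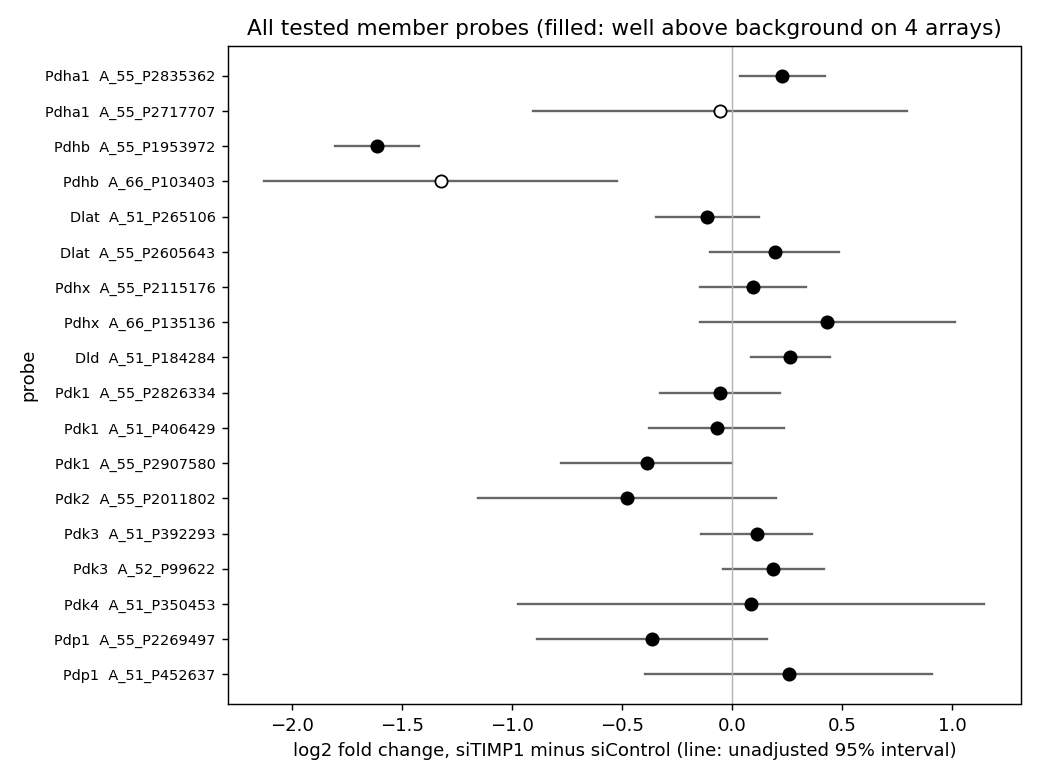
Log2 fold change (siTIMP1 minus siControl) of the 18 tested member probes, ordered by role and then by brightness, with lines for the unadjusted 95% intervals and filled points where the probe was well above background on all 4 arrays. Pdhb has values of -1.61 and -1.32, and the other 16 probes lie between -0.48 and 0.43. The lines of Pdhb, the gene that chose the group, are no test.

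The kinases had no call in either direction over 7 tested probes, and their fold changes lay between -0.48 and 0.19. At an unadjusted p under 0.05, none of the 7 was higher and 1 was lower, a Pdk1 probe, beside 10.6% and 7.7% of all tested probes. The groups did not overlap for 2 kinase probes that were lower and 1 that was higher, beside 23.2% and 29.8% of all tested probes.

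Pdk1, a kinase isoenzyme known as a target of the hypoxia factor HIF-1, had 5 probes on chromosome 2. The brightest, at chr2:71739926-71739985 in NM_172665, had signals of 437.8 and 385.8 in siControl and of 433.5 and 384.1 in siTIMP1. The groups overlapped, with a log2 fold change of -0.06 (interval -0.33 to 0.22, limma adjusted p = 0.801). A neighbouring probe 238 bases upstream gave -0.07 (interval -0.38 to 0.24, limma adjusted p = 0.775). Another, which starts at base 402 of the same mRNA, had signals of 47.38 and 46.75 in siControl and of 35.37 and 38.9 in siTIMP1. It gave -0.39 (interval -0.77 to -0.002, limma adjusted p = 0.271), lower on both siTIMP1 arrays, where the other tested Pdk1 probes overlapped.

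The remaining Pdk1 probes were well above background on no array. One of them starts at base 711 of NM_172665, between tested probes of the same mRNA, and its genomic span of 295 bases shows that it crosses an intron. Its signals lay between 2.577 and 3.356. The other, assigned to ENSMUST00000148249, had signals between 2.17 and 2.918. An mRNA read by probes on either side was thus not read by this one, which says nothing of the level of Pdk1.

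Pdk2, a widely expressed kinase isoenzyme, had signals of 29.49 and 37.05 in siControl and of 20.41 and 29.35 in siTIMP1 at chr11:94887669-94887728. The groups did not overlap, but siTIMP1 replicate 2 nearly matched siControl replicate 1. The log2 fold change was -0.48 (SE 0.264, interval -1.16 to 0.20, limma adjusted p = 0.389). Leaving out 1 array gave values between -0.74 and -0.22, and the value was -0.18 with normexp background correction.

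Pdk3, an isoenzyme encoded on the X chromosome, had signals of 577.7 and 536.9 in siControl and of 663.9 and 580.3 in siTIMP1 with the brighter probe. Its log2 fold change was 0.11 (interval -0.14 to 0.36, limma adjusted p = 0.565). After normalisation siTIMP1 replicate 2 lay between the siControl arrays. The other probe spans 3693 genomic bases and so crosses an intron, and had 207.9 and 201.4 in siControl and 245.6 and 235.3 in siTIMP1. It gave 0.19 (interval -0.04 to 0.42, limma adjusted p = 0.34), higher on both siTIMP1 arrays.

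Pdk4, the isoenzyme induced by fasting, fatty acids and glucocorticoids in many tissues, was measured by 1 probe at chr6:5433441-5433500. Its signals were 193.4 and 461.9 in siControl and 317.1 and 337.9 in siTIMP1. The siControl arrays differed 2.44-fold and both siTIMP1 arrays fell between them. The log2 fold change was 0.09 (SE 0.414, interval -0.97 to 1.15, limma adjusted p = 0.924), the widest interval of any member. Without siControl replicate 1 the value was -0.56, and without siControl replicate 2 it was 0.73. The direction of Pdk4 was thus set by which siControl array was used. Of all tested probes, 2.13% had a larger difference between the siControl arrays.

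Pdp1, the catalytic subunit of the phosphatase that reactivates E1, had 2 probes in transcripts of the same gene. The brighter, at chr4:11885487-11885546, had signals of 137.9 and 199.6 in siControl and of 136.6 and 129.5 in siTIMP1. The other, at chr4:11887784-11887843, had 34.15 and 51.98 in siControl and 56.56 and 47.71 in siTIMP1. With both probes siControl replicate 2 was above siControl replicate 1, by 0.57 and 0.64 on the log2 scale. Larger gaps between the siControl arrays were found for 8.96% and 7.10% of all tested probes.

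The fold changes of the Pdp1 probes were of opposite sign, at -0.36 (interval -0.88 to 0.16, limma adjusted p = 0.393) and 0.26 (interval -0.40 to 0.91, limma adjusted p = 0.609). Without siControl replicate 1 they were -0.65 and -0.06, and without siControl replicate 2 they were -0.08 and 0.58. The middle 30 bases of both are shown, 5′ to 3′ as the array files give them, because these stretches of 1 gene, 2297 bases apart, had fold changes of opposite sign.
A_55_P2269497: tatggttagagaaacgcccacggtgaatta
A_51_P452637: gcttagtcttcctgaagagcttgctcggat

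**Figure D3:**
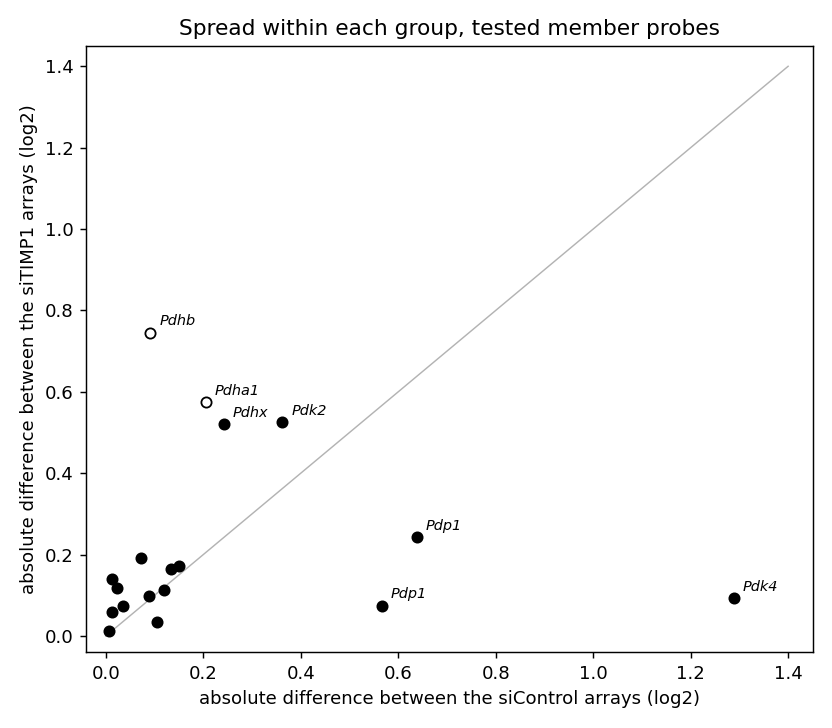
Absolute difference between the 2 siControl arrays (horizontal) and between the 2 siTIMP1 arrays (vertical) for the 18 tested member probes, on the log2 scale, with open points for probes not well above background on all 4 arrays. Pdk4 (1.29) and both Pdp1 probes (0.64 and 0.57) lie far to the right of the line of equal differences.

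Among tested member probes, the widest gap between the siControl arrays after those of Pdk4 and Pdp1 was that of Pdk2, at 0.36 on the log2 scale. The brightest probes of Pdha1, Pdhb, Dlat, Dld and Pdk3 differed between those arrays by at most 0.09 on the log2 scale. The untested Pdhb probe A_55_P1969775 had wider gaps, 1.51 between the siControl arrays and 0.90 between the siTIMP1 arrays. The median absolute difference over all tested probes was 0.15 between the siControl arrays and 0.12 between the siTIMP1 arrays. With siTIMP1, the widest gaps among tested member probes were 0.75 for the second Pdhb probe, 0.58 for the second Pdha1 probe, 0.53 for Pdk2 and 0.52 for the second Pdhx probe.

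Of the 7 members with more than 1 tested probe, 3 had probes of opposite sign, namely Pdha1, Dlat and Pdp1. In Pdhx, Pdk1 and Pdk3 all tested probes had the same sign. Both tested Pdhb probes did too, but 1 chose the group and the other was tested through siControl alone, so this is no support. Small values turned sign in some alternatives, among them those of the second Pdha1 probe (-0.05) and the brightest Pdk1 probe (-0.06).

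**Figure D4:**
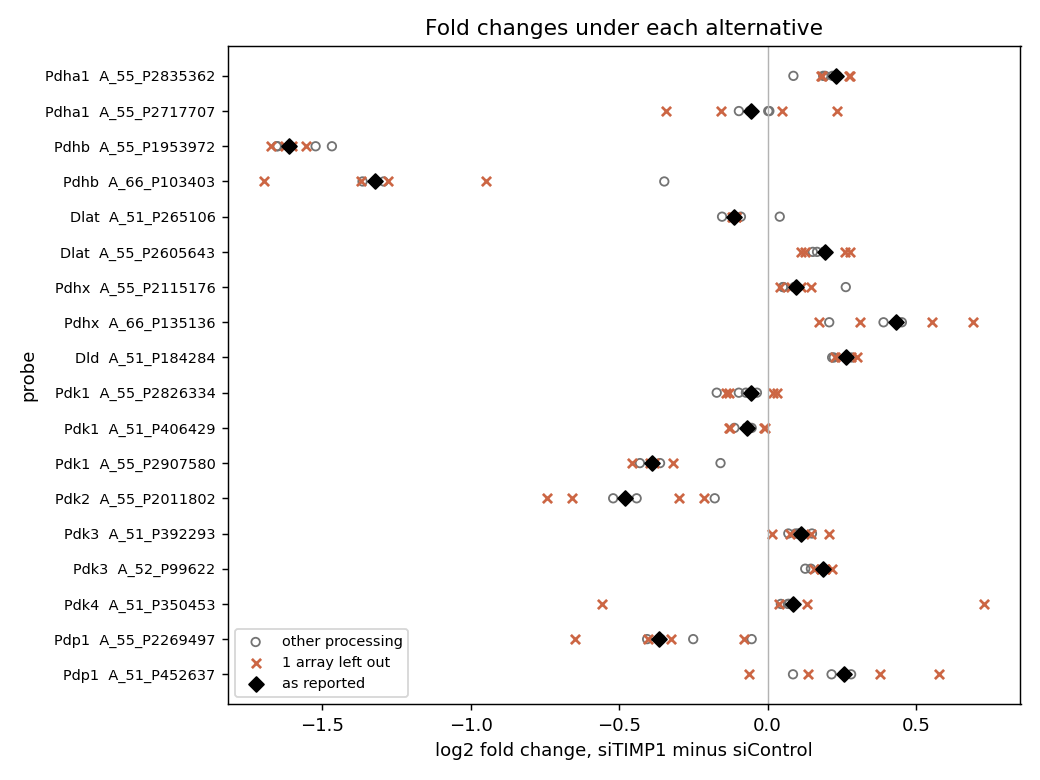
Log2 fold change (siTIMP1 minus siControl) of the 18 tested member probes as reported (diamonds), under other processing (open circles) and with 1 array left out (crosses). The brightest Pdhb probe stays between -1.67 and -1.52, while Pdk4 runs from -0.56 to 0.73 with the siControl array that is left out. Gene means are drawn in the row of the brightest probe, at -1.47 for Pdhb.

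The genes whose signal over the 4 arrays was most like that of the brightest Pdhb probe were Lpp, Edem1, Eipr1, Hnrnpa0 and Il17rd, in that order. Likeness was the root mean square difference over 4 arrays after each probe's mean was subtracted, among 11691 genes well above background on every array. It was 0.0446 for Lpp, a focal adhesion protein, 0.0462 for Edem1, a protein of glycoprotein quality control in the endoplasmic reticulum, and 0.0707 for Il17rd. Their log2 fold changes, which the choice by likeness fixes, were -1.65, -1.60, -1.50, -1.49 and -1.47. They are a description of these arrays, and no test is attached to them.

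Around the complex, 70 genes in 6 pathway lists were examined, of which 63 were tested. A gene was represented by its brightest tested probe. In limma, 2 of the 63 fell, Me1 and Nr3c1, beside 0.699% of all genes, and none rose, beside 0.0846% of all genes. At an unadjusted p under 0.05, 10 of the 63 were higher and 4 were lower, beside 11.8% and 7.98% of all genes. With 1 array left out the counts that fell and rose changed, as did those over all tested probes. Nothing is read from the calls of such fits. Without siControl replicate 1 the log2 fold changes were 0.49 for Slc16a1 and 0.32 for Pdp2, against 0.385 and 0.28 with all arrays. The groups did not overlap for 28 that were higher and 11 that were lower, beside 31% and 23% of all genes. The median log2 fold change over the 63 was 0.08, beside 0.02 over all 17734 genes.

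Among genes of pyruvate supply and its other fates, 1 of 14 fell and none rose, beside 0.699% and 0.0846% of all genes. Their median was 0.07. Me1, the cytosolic malic enzyme that makes pyruvate and NADPH from malate, had signals of 1641 and 1822 in siControl and of 769.8 and 747.3 in siTIMP1. It fell by 1.23 on the log2 scale (SE 0.0885, limma adjusted p = 0.0229). Without siTIMP1 replicate 1 or 2 its log2 fold change was -1.25 or -1.21. Its limma adjusted p was 0.133 without the eBayes trend, where no tested probe was called. A second Me1 probe fell by 1.20 (limma adjusted p = 0.0225). Me3, a mitochondrial malic enzyme, was not well above background in siControl, with signals of 8.149 and 7.215, and had 18.06 and 17.29 in siTIMP1. It was tested through siTIMP1 alone, the group where it is high. The value was 2.23-fold higher both in the fit and by the bound (log2 interval 0.43 to 1.89, limma adjusted p = 0.158). That bound sets the siTIMP1 mean against a floor for siControl, which on each array is the dimmest signal still well above background or, if higher, the signal of Me3 itself.

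Of the monocarboxylate carriers of the plasma membrane, log2 fold changes were 0.385 for Slc16a1 (limma adjusted p = 0.159) and -0.74 for Slc16a7 (limma adjusted p = 0.19). Slc16a3 was not well above background in siTIMP1, with signals of 12.5 and 16.9 in siControl and of 4.538 and 16.1 in siTIMP1. Its groups overlapped, with a log2 fold change of -0.81 (interval -2.50 to 0.88, limma adjusted p = 0.534), and no direction is read from it. The carrier that brings pyruvate into mitochondria had 0.18 for Mpc1 and 0.24 for Mpc2, with limma adjusted p-values of 0.298 and 0.282. Slc16a3 and the Mpc genes lie outside the rule for named genes and were chosen after their values were seen.

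Of 9 tested factors known to act on kinase genes, 1 fell and none rose, beside 0.699% and 0.0846% of all genes. Their median was 0.08. Nr3c1, the glucocorticoid receptor, had signals of 1491 and 1232 in siControl and of 745.9 and 735.8 in siTIMP1. It fell by 0.92 on the log2 scale (SE 0.102, limma adjusted p = 0.0425), and a second Nr3c1 probe had -0.71 (limma adjusted p = 0.0934). Nr3c1 was not called with outlier spots kept (limma adjusted p = 0.0548), with normexp background correction (0.0524) or with the mean of its probes (0.0837). When the eBayes trend was left out it was not called either (limma adjusted p = 0.166), but then no tested probe was. Without siTIMP1 replicate 1 or 2 its log2 fold change was -0.93 or -0.91. The lipid-sensing receptor Ppard had a log2 fold change of -0.27, the HIF partner Arnt of 0.18 and Myc of 0.22, with limma adjusted p-values of 0.314, 0.406 and 0.387.

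None of the 5 tested regulators outside the 10 members passed in limma. At an unadjusted p under 0.05, 2 were higher, beside 11.8% of all genes. Their median was 0.20, beside 0.02 over all genes. Pdp2, the second phosphatase of the complex, had signals of 15930 and 14740 in siControl and of 19070 and 19400 in siTIMP1. Its log2 fold change was 0.28 (SE 0.0497, limma adjusted p = 0.101). The mitochondrial deacetylase Sirt3 had 0.46 (limma adjusted p = 0.124), the regulatory phosphatase subunit Pdpr 0.20 and Sirt4 -0.22. Pdha2, the alpha chain of the testis, was not tested.

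Genes that supply lipoate, thiamine diphosphate and FAD had no call in limma over 12 members, with a median of 0.09. At an unadjusted p under 0.05, 2 were higher, beside 11.8% of all genes. Slc19a2, a thiamine transporter, had signals of 540.6 and 572.6 in siControl and of 1061 and 818.3 in siTIMP1, with a log2 fold change of 0.70 (SE 0.142, limma adjusted p = 0.123). Iba57, needed for iron-sulfur clusters, had 0.37 and the lipoate synthase Lias 0.14. Both siTIMP1 arrays of Slc19a2 were above both siControl arrays.

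The related 2-oxo acid dehydrogenase complexes had no call in limma over 8 tested genes, with a median of 0.05. At an unadjusted p under 0.05, 1 was higher and another 1 lower, beside 11.8% and 7.98% of all genes. Bckdha, an E1 alpha chain of the branched-chain complex, had 0.22 (limma adjusted p = 0.236), and Dlst, the E2 of the 2-oxoglutarate complex, had 0.19 (limma adjusted p = 0.279). Ppm1k, the phosphatase of the branched-chain complex, had -0.20 (limma adjusted p = 0.154). Dhtkd1 was well above background in siControl only and was tested through that group. It was 1.14-fold lower in siTIMP1 by the bound, and its fitted log2 interval of -1.42 to 0.22 includes 0 (limma adjusted p = 0.375). In the citric acid cycle none of 15 genes passed in limma, 3 were higher at an unadjusted p under 0.05 (11.8% of all genes were), 12 had values above 0 and the median was 0.10. Idh3b, a subunit of the NAD-dependent isocitrate dehydrogenase, had 0.42 (limma adjusted p = 0.11), citrate synthase (Cs) 0.14 and Sdhb, of succinate dehydrogenase, 0.14. Over all genes 54% had values above 0.

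**Figure D5:**
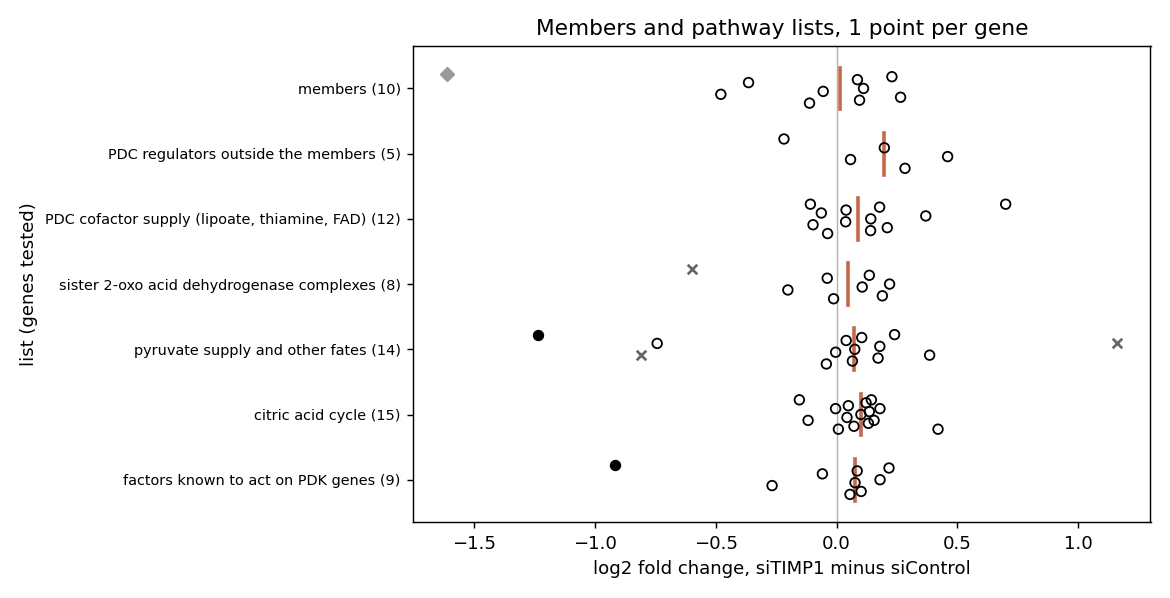
Log2 fold change (siTIMP1 minus siControl) of the members and of the genes of 6 pathway lists, 1 point per gene by its brightest tested probe, with filled circles for genes that passed the limma test, a diamond for Pdhb, crosses for fitted values of genes dim in 1 group, and bars for medians. Me1 (-1.23) and Nr3c1 (-0.92) are the filled circles, and the medians lie between 0.02 and 0.20.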

How the data were processed

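Total RNA of 4 samples was hybridised to 1-colour Agilent arrays. The deposited scanner files hold a processed signal per spot, a background-subtracted intensity for which the submitters' processing notes name Agilent Feature Extraction (version 11.5.1.1) as the authors' software. The authors' deposited value table holds log2 values. Set against the scanner files, each column equals log2 of the processed signal minus 1 constant per array (6.90 to 6.96, largest deviation 0.005), with column medians of -3.94, -3.86, -3.99 and -3.91, and it served as an alternative.

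Control spots and outlier spots (136 to 250 per array) were left out, spots of a probe were averaged, and log2 of the processed signal had each array's 75th percentile subtracted. Probes with a value on all 4 arrays, and well above background on both arrays of a group, entered limma 3.58.1 (R 4.3.3; lmFit, eBayes with a trend; Benjamini-Hochberg over 26015 probes; threshold 0.05). The procedure was tested on simulated data, but no outcome of that is given here and it lends no weight to the calls. The small number of arrays limits the precision. Probe positions are on mm9 as the array files give them. Symbols were updated through RefSeq accessions (32994 probes matched, 1535 updated, GRCm38.p6 table).

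The members, pathway lists and tests were chosen with earlier results of these data known. Named genes were all members, Timp1, called genes of each list and otherwise up to 4 of smallest p, and the 5 genes most like Pdhb, except where stated. Groups were taken from the sample titles. Alternatives covered background correction, normalisation, the dim-probe filter, eBayes settings, outlier spots, the value table, gene means and each array left out.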

Additional observations from a re-analysis of the deposited data

How the results depend on the processing

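The Pdhb probe with the brightest signal lay between -1.67 and -1.52 on the log2 scale (-1.52 with normexp background correction). The mean of the tested Pdhb probes was -1.47, and the dimmer probe had -0.35 with normexp. The count of member probes called lower was 0 without the eBayes trend and 0 with gene means, and ranged from 0 to 2 with 1 array left out. It was 0 without siTIMP1 replicate 1 or 2, and 2 without siControl replicate 1, where Pdk4 joined Pdhb. For pathway genes, the count called lower was 1 with normexp, 0 without the trend, 1 with outlier spots kept and 1 with gene means. It ranged from 0 to 2 with 1 array left out, and was 0 without siTIMP1 replicate 1 or 2. The count called higher ranged from 0 to 2, and was 2 without siControl replicate 1. The mean of the Dlat probes was 0.0411, opposite in sign to probe A_51_P265106 by itself. Signs turned for Pdha1 probe A_55_P2717707 (0.0061 with normexp, 0.0023 with quantile normalisation, -0.34 to 0.23 with 1 array left out). With 1 array left out they also turned for Pdk1 probe A_55_P2826334 (-0.1414 to 0.0312), Pdk4 (-0.56 to 0.73) and Pdp1 probe A_51_P452637 (-0.062 to 0.58). Of single values other than those of Pdhb, 237 kept direction and side of the threshold under an alternative. Another 9 reversed and 12 (of Me1, Nr3c1 and Timp1) lost the call, and the cause was not tested. Gene means are entered here under the brightest probe of each gene. The value of a Pdhb probe, described without a test, moved by more than the replicate spread in 3 cases and by less in 23, and the adjusted p of the selecting probe was not past the threshold in 4 of 14 alternatives. Over all probes, 16 were called higher and 163 lower, against 483 and 840 without siControl replicate 1, 99 and 293 without siControl replicate 2, and 0 and 0 without the trend or without either siTIMP1 array. Where 1 array is left, it is assumed to vary like the other group. The slide as a block could not be fitted, since 1 slide held all arrays. No paired analysis was possible because the labels give the groups no shared replicate numbers. With 2 arrays per group, dim probes near background gave the widest intervals apart from Pdk4.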
